A study of Mus musculus with 8 samples.

Results

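The genes described here encode the synaptic vesicle and release machinery of neurons, as measured in tissue of the suprachiasmatic nucleus (SCN), the hypothalamic seat of the central circadian clock. The rule that picks them uses gene symbols, although it was set with earlier results of these data known. The symbols taken were Syt, Stx, Stxbp, Vamp, Cplx, Syn and Rims with a number and an optional letter, Sv2a to Sv2c, Unc13a to Unc13c, Rab3a to Rab3d, Syp, Snap25 and Napb. This gave 67 of the 19938 genes with a single annotated symbol on the array. Vamp2 was left out because its probe set carries the symbol of a second gene as well. The brightest probe set, by its mean over all 8 arrays, stood for each gene, and 61 of the 67 genes passed a filter on low levels and were tested.

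The study sampled C57BL/6J mice lacking Gpr176, a G protein-coupled receptor gene of SCN neurons, and wild-type C57BL/6J mice at circadian time (CT) 18, in subjective night, and at CT6, in subjective day. The groups were knockout at CT18, knockout at CT6, wild type at CT18 and wild type at CT6, all held in constant darkness after more than 2 weeks of entrainment to 12 h of light alternating with 12 h of darkness. Every group was measured on 2 whole-transcript arrays (A and B), for each of which laser-microdissected SCN from 10 animals had been pooled. How the A and B pools were set apart is not stated, so the p-values measure only the spread between pools. The age and sex of the animals, and which part of Gpr176 was deleted, are not given in the labels.

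Transmitter release depends on SNARE proteins. Vesicle SNAREs of the VAMP family pair with syntaxins and SNAP25 of the plasma membrane, and this pairing pulls the membranes together. Munc18 and tomosyn proteins (Stxbp genes) hold or free the syntaxins, Munc13 (Unc13) and RIM (Rims) proteins prime vesicles at the active zone, complexins clamp the partly paired SNAREs, and synaptotagmins with calcium-binding C2 domains trigger fusion. Synapsins, synaptophysin, SV2 proteins and Rab3 GTPases sit on the vesicle and set its supply, transport and tethering. SCN neurons use this machinery for GABA, and related isoforms serve the dense-core vesicles that carry neuropeptides.

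Expression is given on a log2 scale after quantile normalization, so a difference of 1 stands for a 2-fold difference in signal, and levels of different probe sets are not comparable with each other. A difference is called where the limma adjusted p lies under 0.05, with Benjamini-Hochberg adjustment over all 12452 genes tested, and values after ± are standard errors of the fit to the 8 arrays. Gpr176 itself had log2 levels of 8.42 and 8.56 in knockout arrays at CT18 and 8.08 and 8.02 at CT6, against 9.73 and 9.87 in wild-type arrays at CT18 and 9.37 and 9.31 at CT6, so every knockout array lay below every wild-type array. The 8 neuronal markers averaged between 10.84 and 10.92 in each knockout array and between 10.87 and 10.95 in each wild-type array, with 0 of 8 called between CT18 and CT6, but Snap25 and Syt1, genes of the machinery itself, are 2 of the 8. The 7 SCN markers all averaged above the filter level over the 8 arrays. So did 3 of the 4 markers of neighbouring hypothalamic nuclei, so passing the filter does not set the SCN apart. The mean of the SCN markers was 9.84 to 9.86 in knockout and 9.77 to 9.78 in wild-type arrays at CT18. At CT6 it was 10.44 to 10.54 in knockout and 10.45 to 10.50 in wild-type arrays. Of the 7, 1 was called higher and 4 lower at CT18. Prok2 lay between 6.76 and 7.09 at CT18 and between 9.42 and 9.77 at CT6. For Rgs16, Avp and Six3 every CT18 array was also below every CT6 array. Lhx1 had all CT18 arrays above, while Vip and Six6 overlapped. Leptomeningeal markers differed between pools of the same group, with means of 8.60 and 8.13 in the knockout at CT6 and of 8.59 and 7.96 in wild type at CT18. Their means were 8.09 and 8.46 in wild type at CT6. Both knockout arrays at CT18 stood at 7.93, below both knockout arrays at CT6. The median difference of these markers, CT18 minus CT6 over both genotypes, was -0.24, with none called. Of the other lists, astrocyte markers had 1 of 6 higher at CT18, endothelial and mural markers 2 of 5 lower, and oligodendrocyte and microglial markers none called, and the part of any of these lists in the results below was not tested. In such bulk tissue, fewer cells of a type and less RNA per cell cannot be told apart.

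Between CT18 and CT6, over both genotypes, genes of the machinery moved in both directions. Of the 61 genes tested, 6 rose and 10 fell at CT18 and 45 were not called. That is 26.2% of the members, beside 16.8% of all genes tested (10.0% higher and 6.79% lower). The genes that rose were Syt17, Syt9, Stxbp4, Stx17, Stx1a and Rab3b. Those that fell were Syt13, Syt5, Unc13a, Syt4, Rab3c, Stxbp5, Rims3, Syt14, Stxbp5l and Syt6. The median difference of the 61 was -0.02 log2, beside 0.01 for all genes tested. Apart from Syt17 every called member changed by less than 1.5-fold. Of all genes called in this comparison, 113 (5.39%) changed by at least 1.5-fold. The count of 16 depended on single arrays and on scaling. It was 10 without knockout at CT18 A, 9 without wild type at CT18 A, 8 without wild type at CT18 B, 10 without wild type at CT6 B, and 9 (4 higher, 5 lower) with median centring in place of quantile normalization.

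**Figure D1:**
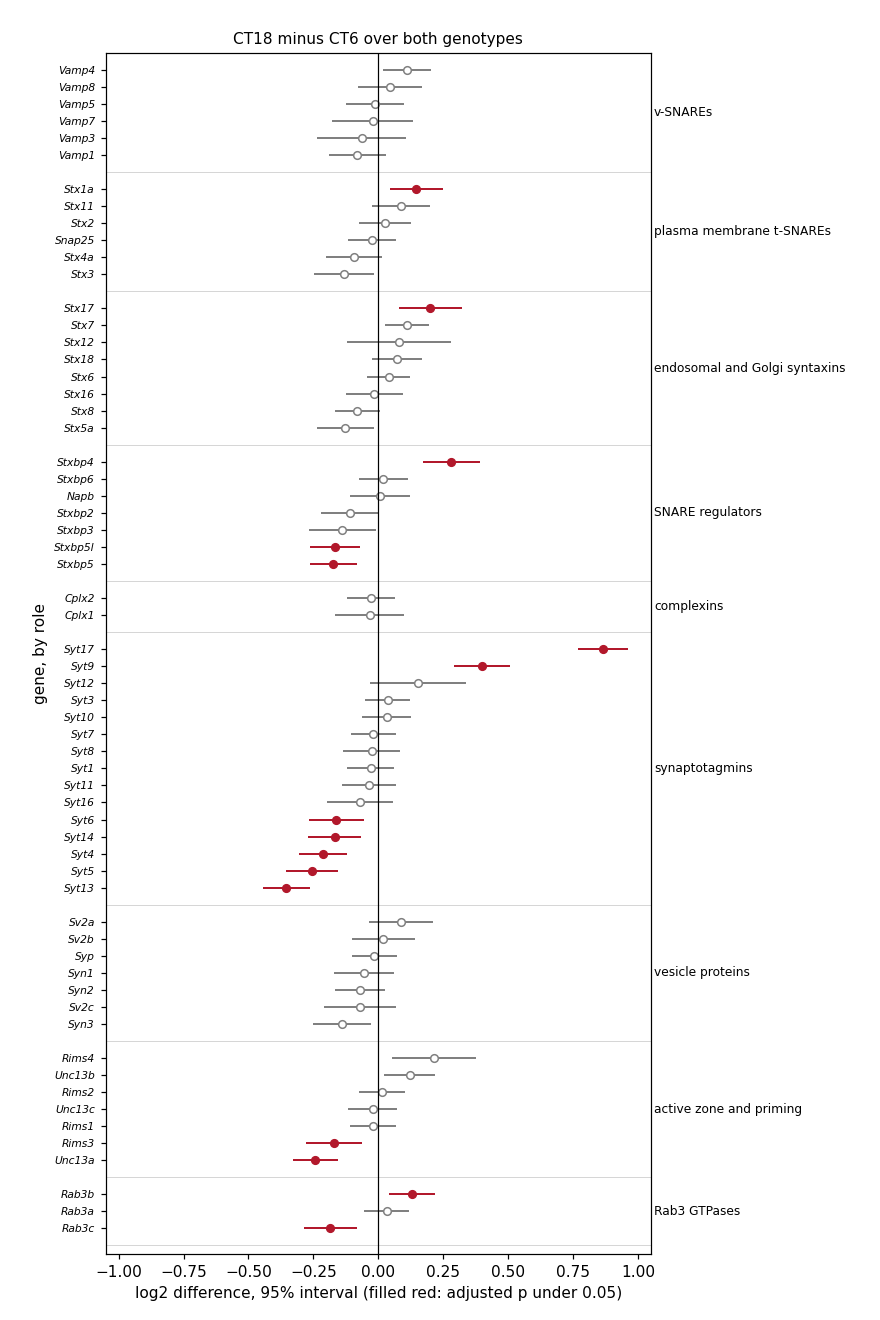
Log2 difference, CT18 minus CT6 over both genotypes (x axis), for the 61 tested genes of the release machinery (y axis, grouped by role), with points for the estimate and lines for its 95% interval. Filled red points passed the test. Syt17 stands apart at 0.87, and the synaptotagmins hold called genes on both sides of 0, while none of the v-SNAREs, complexins or vesicle proteins was called.

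The synaptotagmins held 7 of the 16 called genes. Of 15 tested, 2 rose, 5 fell and 8 were not called, beside 10.0% higher and 6.79% lower among all genes tested. Syt17, an atypical synaptotagmin whose C2 domains sit on a protein without a membrane span, had log2 levels of 10.72 and 10.82 in knockout and 10.97 and 10.93 in wild-type arrays at CT18, against 9.97 and 9.95 in knockout and 9.99 and 10.07 in wild-type arrays at CT6. All CT18 arrays lay above all CT6 arrays. The difference was 0.87 ± 0.0409, or 1.82-fold (limma adjusted p = 1.15e-06), the largest of the 61 members in either direction. Syt9, a calcium sensor of fast release in some forebrain neurons, had 9.22 and 9.35 in knockout and 9.36 and 9.33 in wild-type arrays at CT18, against 8.81 and 8.95 in knockout and 8.97 and 8.93 in wild-type arrays at CT6. Its night arrays were again all above its day arrays, with a difference of 0.40 ± 0.0467 (adjusted p = 0.000418).

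Syt13, which does not bind calcium, was the member with the largest fall. Its log2 levels were 9.69 and 9.71 in knockout and 9.71 and 9.73 in wild-type arrays at CT18, against 10.06 and 9.97 in knockout and 10.10 and 10.12 in wild-type arrays at CT6. The groups did not overlap, and the difference was -0.36 ± 0.0386 (limma adjusted p = 0.000276). Syt5, a calcium-binding synaptotagmin found on dense-core vesicles, had 11.21 and 11.30 in knockout and 11.15 and 11.27 in wild-type arrays at CT18, against 11.45 and 11.45 in knockout and 11.54 and 11.52 in wild-type arrays at CT6, a difference of -0.26 ± 0.043 (adjusted p = 0.00344). Syt4, a calcium-independent isoform known from neuropeptide and neurotrophin vesicles, had 10.84 and 10.94 in knockout and 11.00 and 10.95 in wild-type arrays at CT18, against 11.11 and 11.16 in knockout and 11.16 and 11.16 in wild-type arrays at CT6, a difference of -0.21 ± 0.0396 (adjusted p = 0.00571). For both genes each CT18 array was below each CT6 array.

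Smaller falls were those of Syt14, a calcium-independent synaptotagmin (-0.17 ± 0.0433, limma adjusted p = 0.0258), and Syt6, an isoform known from the sperm acrosome (-0.16 ± 0.0454, adjusted p = 0.0369). Syt14 had log2 levels of 8.93 and 8.99 in knockout and 8.97 and 8.97 in wild-type arrays at CT18, against 9.08 and 9.16 in knockout and 9.08 and 9.21 in wild-type arrays at CT6, and Syt6 had 6.85 and 6.88 in knockout and 6.98 and 6.92 in wild-type arrays at CT18, against 7.01 and 7.14 in knockout and 7.12 and 7.01 in wild-type arrays at CT6. Night and day arrays did not overlap in either gene, although the gap was narrow. Syt6 lay near the filter level of 6.82, and its call was lost in 9 of 14 alternatives and that of Syt14 in 7 of 15. Syt1, the main fast calcium sensor of forebrain synapses, was not called and had 11.96 and 12.03 in knockout and 12.11 and 12.03 in wild-type arrays at CT18, against 12.07 and 12.07 in knockout and 12.06 and 12.04 in wild-type arrays at CT6, a difference of -0.03 ± 0.0388 (adjusted p = 0.678). Syt10, whose locus drives Cre lines used to target SCN neurons, had 12.34 and 12.44 in knockout and 12.49 and 12.52 in wild-type arrays at CT18, against 12.34 and 12.41 in knockout and 12.44 and 12.47 in wild-type arrays at CT6, a difference of 0.03 ± 0.0405 (adjusted p = 0.665). In both, night and day arrays overlapped. Syt11, a calcium-independent isoform, had 11.65 and 11.82 in knockout and 11.79 and 11.75 in wild-type arrays at CT18, against 11.78 and 11.75 in knockout and 11.83 and 11.79 in wild-type arrays at CT6, a difference of -0.04 ± 0.0447 (adjusted p = 0.626). Syt3, Syt7, Syt8, Syt12 and Syt16 gave differences between -0.07 (Syt16) and 0.15 (Syt12), with none called, and those of Syt3, Syt7 and Syt8 were 0.04, -0.02 and -0.03.

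**Figure D2:**
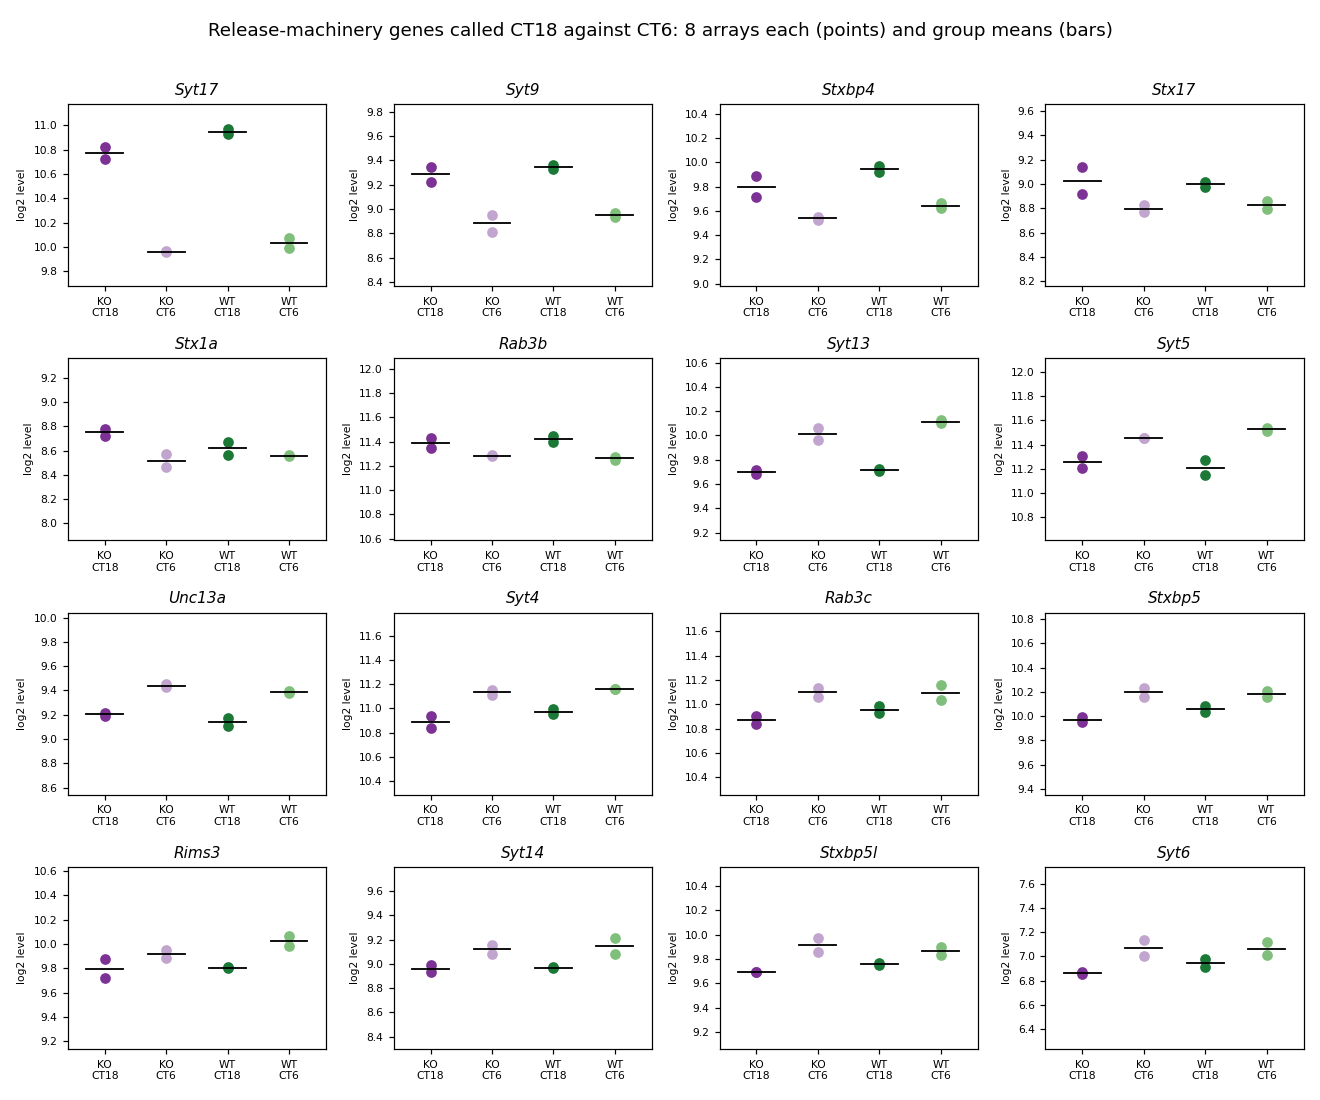
Log2 level (y axis, a span of 1.5 in every panel) of the 16 genes called between CT18 and CT6, in each of the 8 arrays, with points for arrays and bars for the mean of the 2 arrays of a group (x axis). In Syt17 the night arrays lie between 10.72 and 10.97 and the day arrays between 9.95 and 10.07, while in Stx1a the night and day arrays overlap.

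Among the SNAREs themselves 2 of 20 genes were called, Stx17 and Stx1a, beside 16.8% of all genes tested. Stx17, the SNARE of autophagosome fusion, rose by 0.20 ± 0.0520 (limma adjusted p = 0.0271). It had log2 levels of 8.91 and 9.14 in knockout and 9.02 and 8.98 in wild-type arrays at CT18, against 8.77 and 8.82 in knockout and 8.80 and 8.86 in wild-type arrays at CT6, with no overlap, and the call was lost in 6 of the 8 fits without 1 array. Stx1a, the plasma membrane partner of SNAP25 at synapses, had 8.72 and 8.78 in knockout and 8.67 and 8.57 in wild-type arrays at CT18, against 8.46 and 8.57 in knockout and 8.55 and 8.56 in wild-type arrays at CT6. It rose by 0.15 ± 0.0433 (adjusted p = 0.0462), but wild type at CT18 B lay level with the day arrays, and the call was lost in 10 of 15 alternative settings, 6 of which left out 1 array. Snap25 had 12.74 and 12.85 in knockout and 12.85 and 12.86 in wild-type arrays at CT18, against 12.81 and 12.83 in knockout and 12.87 and 12.89 in wild-type arrays at CT6, a difference of -0.02 ± 0.0392 (adjusted p = 0.745), with overlapping groups. None of the 6 v-SNAREs tested was called, with differences from -0.08 for Vamp1 to 0.11 for Vamp4. Vamp4, a SNARE of the trans-Golgi network and endosomes, and Stx7, a late endosomal syntaxin (0.11), had all night arrays above all day arrays without passing (adjusted p = 0.0863 and 0.065). The other v-SNAREs were Vamp3 (-0.06), which serves recycling endosomes, Vamp5 (-0.01), Vamp7 (-0.02), which serves lysosomes, and Vamp8 (0.05). The remaining plasma membrane syntaxins lay between -0.13 for Stx3, which replaces Stx1 at retinal ribbon synapses, and 0.09 for Stx11, with Stx4a at -0.09 and Stx2 at 0.03. The remaining endosomal and Golgi syntaxins lay between -0.13 for Stx5a, of traffic between endoplasmic reticulum and Golgi, and 0.08 for Stx12, with Stx8 at -0.08, Stx16 at -0.02, Stx6 at 0.04 and Stx18 at 0.07.

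Of the 7 SNARE regulators tested, 1 rose and 2 fell, beside 10.0% and 6.79% of all genes tested. Stxbp4, a syntaxin-4-binding protein known from insulin-regulated glucose transporter traffic, had 9.71 and 9.89 in knockout and 9.97 and 9.92 in wild-type arrays at CT18, against 9.52 and 9.55 in knockout and 9.66 and 9.62 in wild-type arrays at CT6. Its difference was 0.28 ± 0.0466 (limma adjusted p = 0.00315), and night arrays were all above day arrays. A second probe set of Stxbp4 gave 0.15 where this one gave 0.28. The genes that fell were both tomosyns, inhibitors that occupy syntaxin and SNAP25. Stxbp5 had 9.95 and 9.99 in knockout and 10.09 and 10.04 in wild-type arrays at CT18, against 10.16 and 10.23 in knockout and 10.21 and 10.16 in wild-type arrays at CT6, a difference of -0.17 ± 0.0386 (adjusted p = 0.0138). Stxbp5l had 9.70 and 9.69 in knockout and 9.75 and 9.77 in wild-type arrays at CT18, against 9.86 and 9.97 in knockout and 9.90 and 9.84 in wild-type arrays at CT6, a difference of -0.17 ± 0.0404 (adjusted p = 0.0203). The night arrays of both tomosyn genes were all below the day arrays. The Stxbp5 call was lost with median centring (adjusted p = 0.0633) or without wild type at CT18 B, and the Stxbp5l call in 8 of 15 alternatives. Napb, the brain form of the SNAP adaptor that recruits the NSF ATPase to spent SNAREs, had 10.86 and 10.99 in knockout and 11.05 and 10.97 in wild-type arrays at CT18, against 10.90 and 11.00 in knockout and 10.91 and 11.03 in wild-type arrays at CT6, a difference of 0.01 ± 0.05 (adjusted p = 0.946). Stxbp2 and Stxbp3, the Munc18 forms of cells other than neurons, stood at -0.11 ± 0.0485 and -0.14 ± 0.0556 (adjusted p = 0.164 and 0.124), and Stxbp6, also called amisyn, at 0.02 ± 0.0409 (adjusted p = 0.808).

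At the active zone, Unc13a and Rims3 fell and the other 5 genes of that group were not called, beside 6.79% lower among all genes tested. Unc13a encodes Munc13-1, the priming factor that most glutamatergic forebrain synapses depend on, and had 9.22 and 9.19 in knockout and 9.10 and 9.17 in wild-type arrays at CT18, against 9.45 and 9.42 in knockout and 9.40 and 9.38 in wild-type arrays at CT6. Night arrays were all below day arrays, with a difference of -0.24 ± 0.0368 (limma adjusted p = 0.00199). Its other 2 probe sets gave -0.14 and -0.05 where the one used gave -0.24. With the mean of the 3 the difference was -0.14, a change of more than 1.5 times in size, and still passed (adjusted p = 0.0357). Rims3, a short RIM protein without the Rab3-binding part, had 9.72 and 9.87 in knockout and 9.80 and 9.81 in wild-type arrays at CT18, against 9.95 and 9.88 in knockout and 9.99 and 10.07 in wild-type arrays at CT6, a difference of -0.17 ± 0.0459 (adjusted p = 0.031), which was lost in 8 of 15 alternatives. Unc13b, which encodes Munc13-2, stood at 0.12 ± 0.042 (adjusted p = 0.0825) and Unc13c at -0.02 ± 0.0405 (adjusted p = 0.777). The long RIM genes Rims1 (-0.02) and Rims2 (0.01), the central organisers of the active zone, did not pass, nor did Rims4 (0.21 ± 0.0705, adjusted p = 0.0674).

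The Rab3 GTPases, which tether vesicles to RIM, had 3 genes tested. Of these 1 rose and 1 fell, beside 10.0% and 6.79% of all genes tested. Rab3b had 11.35 and 11.43 in knockout and 11.39 and 11.44 in wild-type arrays at CT18, against 11.28 and 11.29 in knockout and 11.28 and 11.25 in wild-type arrays at CT6, and rose by 0.13 ± 0.0381 (limma adjusted p = 0.0446). Rab3c had 10.84 and 10.90 in knockout and 10.98 and 10.93 in wild-type arrays at CT18, against 11.06 and 11.14 in knockout and 11.03 and 11.16 in wild-type arrays at CT6, a difference of -0.18 ± 0.0442 (adjusted p = 0.0193). Night and day arrays did not overlap in either gene. The Rab3b call was lost in 12 of 15 alternatives and the Rab3c call in 5. Rab3a, the main isoform of brain synapses, had 10.84 and 10.85 in knockout and 10.87 and 10.81 in wild-type arrays at CT18, against 10.77 and 10.83 in knockout and 10.85 and 10.80 in wild-type arrays at CT6, a difference of 0.03 ± 0.0376 (adjusted p = 0.634).

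None of the 7 vesicle proteins was called, beside 16.8% of all genes tested. Syp, the synaptophysin gene, had 11.62 and 11.64 in knockout and 11.61 and 11.57 in wild-type arrays at CT18, against 11.66 and 11.65 in knockout and 11.63 and 11.56 in wild-type arrays at CT6, a difference of -0.02 ± 0.0374 (limma adjusted p = 0.828). Syn2, a synapsin that holds vesicles in the reserve pool, had 11.17 and 11.27 in knockout and 11.24 and 11.26 in wild-type arrays at CT18, against 11.26 and 11.31 in knockout and 11.36 and 11.30 in wild-type arrays at CT6, a difference of -0.07 ± 0.0406 (adjusted p = 0.28). Both genes overlapped between night and day. Syn3 had the lowest value of the group, -0.14 ± 0.0477 (adjusted p = 0.0748), with all night arrays below all day arrays. The SV2 genes, which encode vesicle glycoproteins, lay between -0.07 for Sv2c and 0.09 for Sv2a, with Sv2b at 0.02, and Syn1, the first synapsin, at -0.06. The complexins Cplx1 (-0.03 ± 0.0572) and Cplx2 (-0.03 ± 0.0399) did not pass either. Over all roles, 7 of the 61 members had every CT18 array above every CT6 array and 11 had every CT18 array below, beside 21.0% of all genes tested with no overlap in one direction or the other.

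The 6 genes under the filter were Cplx3, Cplx4, Rab3d, Stx19, Syt2 and Syt15. Their array levels lay between 5.18 and 6.87 log2. Syt2 is the fast calcium sensor of hindbrain and neuromuscular synapses, and Cplx3 and Cplx4 are the complexins of retinal ribbon synapses. Rab3d is known from secretory cells outside the brain.

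Promoter windows are shown for called members, to show what lies before the starts of genes that rose (Syt9, Stxbp4) and of genes that fell (Unc13a, Syt14, Syt6). RefSeq promoter sequences (build GRCm38.p6) were matched for 49 of the 61 tested members, in 64 windows of 250 bases ending at an annotated start. Both strands were searched for the E-box CACGTG bound by CLOCK and BMAL1, the cAMP response element TGACGTCA, the D-box as TTATGTAA or TTACGTAA, and the ROR element. The E-box letters were present in 12.5% of member windows (8 windows of 7 genes) and in 6.02% of all 32851 windows. The cAMP response element was present in 3.12% (2 windows) and 1.55%. Overlapping windows of Syt6 hold the same E-box, so that site was counted more than once. Besides Syt14 and Syt6, the members with an E-box were Stx6, Stxbp2, Sv2b, Unc13b and Vamp4, none of them called between CT18 and CT6. The D-box and ROR letters were in none of the member windows, and in 0.931% and 0.177% of all windows. Of the called genes with a window, Syt14 held an E-box 77 bases before its start, and Syt6 held 1 that lies 26 bases before the first of its 3 listed starts and 63 before the next. These were the only matches among the 12 called genes searched, and Syt17, Syt13, Syt5 and Syt4 were not searched. Each motif match is a description of letters and not of a bound site. The first windows below are those of the matched members that were called in each genotype on its own (Syt9, Stxbp4 and Unc13a), which hold none of the 4 motifs, and the last are those with the E-box, which is in capitals. All are written 5′ to 3′ on the strand of the gene.
Syt9 promoter, chr7:107370540-107370789, + strand: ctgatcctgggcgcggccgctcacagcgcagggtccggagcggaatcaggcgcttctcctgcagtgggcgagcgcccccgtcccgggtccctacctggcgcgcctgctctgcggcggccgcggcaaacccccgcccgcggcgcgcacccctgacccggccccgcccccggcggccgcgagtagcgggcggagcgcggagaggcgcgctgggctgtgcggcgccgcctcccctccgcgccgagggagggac
Stxbp4 promoter, chr11:90638109-90638358, - strand: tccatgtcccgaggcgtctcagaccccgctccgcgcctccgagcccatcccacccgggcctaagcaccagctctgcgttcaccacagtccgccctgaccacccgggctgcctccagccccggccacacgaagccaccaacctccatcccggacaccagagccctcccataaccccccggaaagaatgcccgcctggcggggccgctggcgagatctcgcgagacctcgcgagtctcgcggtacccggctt
Unc13a promoter, chr8:71671758-71672007, - strand: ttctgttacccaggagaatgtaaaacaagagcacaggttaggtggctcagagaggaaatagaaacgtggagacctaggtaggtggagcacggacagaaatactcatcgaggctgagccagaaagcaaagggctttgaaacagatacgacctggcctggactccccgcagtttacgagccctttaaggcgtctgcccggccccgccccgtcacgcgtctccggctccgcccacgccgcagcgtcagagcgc
Syt14 promoter, chr1:193035776-193036025, - strand: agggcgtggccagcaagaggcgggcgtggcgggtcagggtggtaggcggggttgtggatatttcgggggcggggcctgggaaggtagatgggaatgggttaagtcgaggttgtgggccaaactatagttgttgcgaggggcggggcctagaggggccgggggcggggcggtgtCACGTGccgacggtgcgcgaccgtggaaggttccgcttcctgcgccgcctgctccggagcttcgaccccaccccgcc
Syt6 promoter, chr3:103574995-103575244, + strand: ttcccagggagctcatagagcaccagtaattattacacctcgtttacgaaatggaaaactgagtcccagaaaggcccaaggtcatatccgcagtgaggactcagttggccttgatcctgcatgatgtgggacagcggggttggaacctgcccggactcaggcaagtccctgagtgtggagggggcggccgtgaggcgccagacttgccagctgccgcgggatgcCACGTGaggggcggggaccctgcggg

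Within each genotype, the day-night comparison asked whether the same members move without Gpr176. In the knockout 4 members rose and 5 fell at CT18 (14.8% of those tested), beside 3.63% and 3.53% of all genes tested (7.16% in all). In wild type 3 rose and 3 fell (9.84%), beside 4.40% and 2.54% of all genes tested (6.94% in all). Syt17, Syt9, Stxbp4, Syt13 and Unc13a were called in both, which is 55.6% of the knockout calls and 83.3% of the wild-type calls. Syt17 differed by 0.81 ± 0.0579 in the knockout and by 0.92 ± 0.0579 in wild type (limma adjusted p = 3.9e-05 and 1.92e-05). Syt13 differed by -0.32 ± 0.0547 in the knockout and by -0.40 ± 0.0547 in wild type. Syt9 differed by 0.40 ± 0.0661 in the knockout and by 0.40 ± 0.0661 in wild type, and Stxbp4 by 0.26 ± 0.0659 in the knockout and by 0.30 ± 0.0659 in wild type. Unc13a stood at -0.23 ± 0.052 in the knockout and -0.25 ± 0.052 in wild type. With the mean of its 3 probe sets Unc13a was called in neither genotype, at -0.12 in the knockout and -0.17 in wild type (adjusted p = 0.257 and 0.115). The Stxbp4 call was lost in 12 of 15 alternatives in the knockout and in 4 in wild type. That of Unc13a was lost in 6 in the knockout and 7 in wild type, with median centring among them in both. Syt9 lost its call in 1 in the knockout and 2 in wild type, and Syt13 in 2 and 0. The 16 members called over both genotypes had the same direction in each genotype. They were picked on the mean of the 2 differences, which favours such agreement. Among all 61 tested members 47 had the same direction, and the share over all genes tested was not computed. The knockout calls rested on single arrays. Without knockout at CT18 A, 5 members were higher and 0 lower, and 3 of these 5 were among the 9. Without knockout at CT6 A, 2 were higher and 0 lower, so none of the 5 falls was called in either fit. The count was 2 (1 higher, 1 lower) without knockout at CT18 B, and 4 without knockout at CT6 B (3 higher, 1 lower) or either wild-type array at CT6 (2 higher, 2 lower). The wild-type count of 6 was 2 without wild type at CT18 A or wild type at CT6 B and 3 without wild type at CT6 A. Syt17 was called in each of these fits in both genotypes. With the values as deposited 3 members were higher and 2 lower in each genotype, and with median centring 3 were higher and 1 lower in the knockout and 3 higher and 2 lower in wild type.

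Stxbp5, Stxbp5l, Syt4 and Rims4 were called in the knockout and not in wild type, and Syt5 in wild type and not in the knockout. Stxbp5 differed by -0.22 ± 0.0546 in the knockout (limma adjusted p = 0.0383) and by -0.12 ± 0.0546 in wild type (adjusted p = 0.229). Stxbp5l stood at -0.22 ± 0.0572 in the knockout (adjusted p = 0.0468) and -0.11 ± 0.0572 in wild type (adjusted p = 0.299), and Syt4 at -0.24 ± 0.0561 in the knockout (adjusted p = 0.0333) and -0.19 ± 0.0561 in wild type (adjusted p = 0.0807). The knockout calls of Stxbp5 and Stxbp5l were each lost in 12 of 15 alternatives, and that of Syt4 in 9. Syt5 differed by -0.20 ± 0.0609 in the knockout (adjusted p = 0.089) and by -0.32 ± 0.0609 in wild type (adjusted p = 0.0134). Its wild-type call was lost in 3 of 15 alternatives. The difference between the genotypes was itself tested by the interaction, which called none of the 61 members and none of the 12452 genes (0% called). At an unadjusted p under 0.05 it held 4 members, or 6.56%, beside 4.86% of all genes. The interaction of Stxbp5 was -0.10 (95% interval -0.28 to 0.07) and that of Syt5 0.12 (-0.07 to 0.31). It was -0.11 for Stxbp5l (-0.29 to 0.07) and -0.05 for Syt4 (-0.23 to 0.13). For Syt17 it was -0.10 (-0.29 to 0.08).

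Rims4, a short RIM protein, had the interaction with the smallest p of the 61. Its log2 levels were 8.41 and 8.34 in knockout and 8.06 and 8.24 in wild-type arrays at CT18, against 7.80 and 8.12 in knockout and 8.17 and 8.09 in wild-type arrays at CT6. The knockout night arrays lay above the knockout day arrays, while the wild-type arrays of night and day overlapped. The day-night difference was 0.41 ± 0.0997 in the knockout (limma adjusted p = 0.0383) and 0.02 ± 0.0997 in wild type (adjusted p = 0.944), and the interaction was 0.39 ± 0.141 (95% interval 0.08 to 0.71, adjusted p = 0.944). Without knockout at CT6 A, the lowest of the 8 arrays, the knockout difference was 0.25 and was not called. Stx6, a Golgi and endosomal syntaxin (0.19), Stx11, a syntaxin of immune cells (0.24), Stx16, a Golgi syntaxin (-0.23), and Sv2c (-0.26) followed, each with an adjusted p of 0.944.

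**Figure D3:**
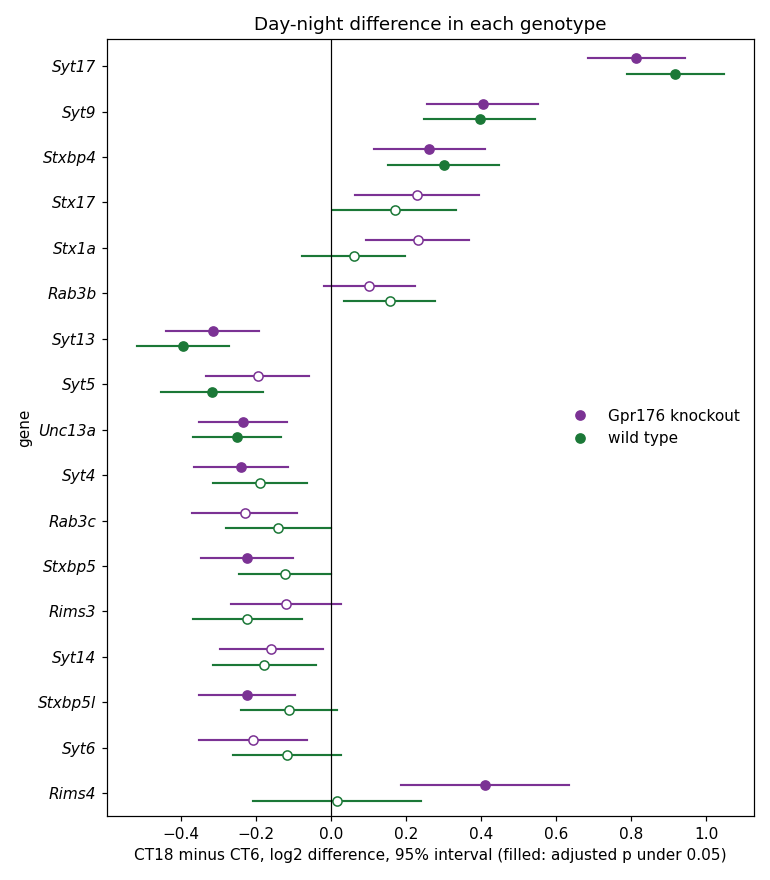
Log2 difference, CT18 minus CT6 (x axis), in the Gpr176 knockout (upper point of each pair) and in wild type (lower point), for the 16 genes called over both genotypes and Rims4, with 95% intervals. Filled points passed the test in that genotype. The intervals of the genotypes overlap for every gene, and the widest separation is that of Rims4, at 0.41 in the knockout and 0.02 in wild type.

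The knockout was then compared with wild type at each time. None of the 61 members was called by limma over both times, beside 0.0241% of all genes tested, nor at CT18 or at CT6, beside 0.00803% each. At an unadjusted p under 0.05 there were 6 members over both times (9.84%, beside 12% of all genes), 5 at CT18 (8.2%, beside 12.5%) and 1 at CT6 (1.64%, beside 4.24%). The differences over both times ran from -0.12 for Stxbp4 to 0.14 for Vamp8. They were below 0 for 42 members and above 0 for 19, a split that was not counted over all genes tested. Their median was -0.03, beside -0.01 for all genes tested. The 95% intervals of the 61 genes, not adjusted for their number, all lay between -0.30 and 0.26. Markers of neighbouring hypothalamic nuclei averaged 8.81 to 8.97 over the knockout arrays and 8.66 to 8.83 over the wild-type arrays. These means include Pomc, which lay under the filter. None of the 3 tested markers was called, but their median difference was 0.26, above the 0.14 of Vamp8. The part of these markers in the differences of the members was not tested.

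The members with the smallest p over both times were Rims1, Syt17, Stxbp4, Vamp8 and Unc13c. Rims1, a long RIM of the active zone, had log2 levels of 9.25 and 9.27 in knockout arrays, against 9.39 and 9.47 in wild-type arrays, at CT18, and 9.34 and 9.33 in knockout arrays, against 9.42 and 9.38 in wild-type arrays, at CT6. Every knockout array lay below every wild-type array, with a difference of -0.12 ± 0.0378 (limma adjusted p = 0.36). Syt17 had a difference of -0.12 ± 0.0409 (adjusted p = 0.367), with -0.18 at CT18 and -0.07 at CT6. Stxbp4 stood at -0.12 ± 0.0466 (adjusted p = 0.374) and Vamp8, a SNARE of endosomes and of secretory cells, at 0.14 ± 0.0532 (adjusted p = 0.374). Unc13c, which encodes Munc13-3 and is known from cerebellar granule cells, had 8.06 and 7.95 in knockout arrays, against 8.09 and 8.15 in wild-type arrays, at CT18, and 8.04 and 8.04 in knockout arrays, against 8.15 and 8.11 in wild-type arrays, at CT6. Its difference was -0.10 ± 0.0405 (adjusted p = 0.38), and all 7 of its probe sets, 1 of them under the filter level, were lower in the knockout, by values from -0.03 to -0.22. The probe sets share their RNA and are not replicates.

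Every knockout array lay below every wild-type array in 4 members, Rims1, Rims2, Syt3 and Unc13c, and above in 0, beside 4.22% of all genes with no overlap in either direction. Rims2 differed by -0.07 ± 0.0382 (limma adjusted p = 0.503) and Syt3, a calcium-binding synaptotagmin, by -0.08 ± 0.0375 (adjusted p = 0.444). At CT18 the next members were Stx6 (0.12), Rims4 (0.23) and Syt8 (0.15). At CT6 they were Sv2c (0.20), Stx16 (0.13), Sv2a (-0.14), Stx11 (-0.13) and Syt13 (-0.10). None of these passed (adjusted p from 0.377 at CT18 and 0.975 at CT6). Snap25 had a difference of -0.06 ± 0.0392, Syt1 of -0.03 ± 0.0388, Syp of 0.05 ± 0.0374 and Syt10 of -0.10 ± 0.0405.

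**Figure D4:**
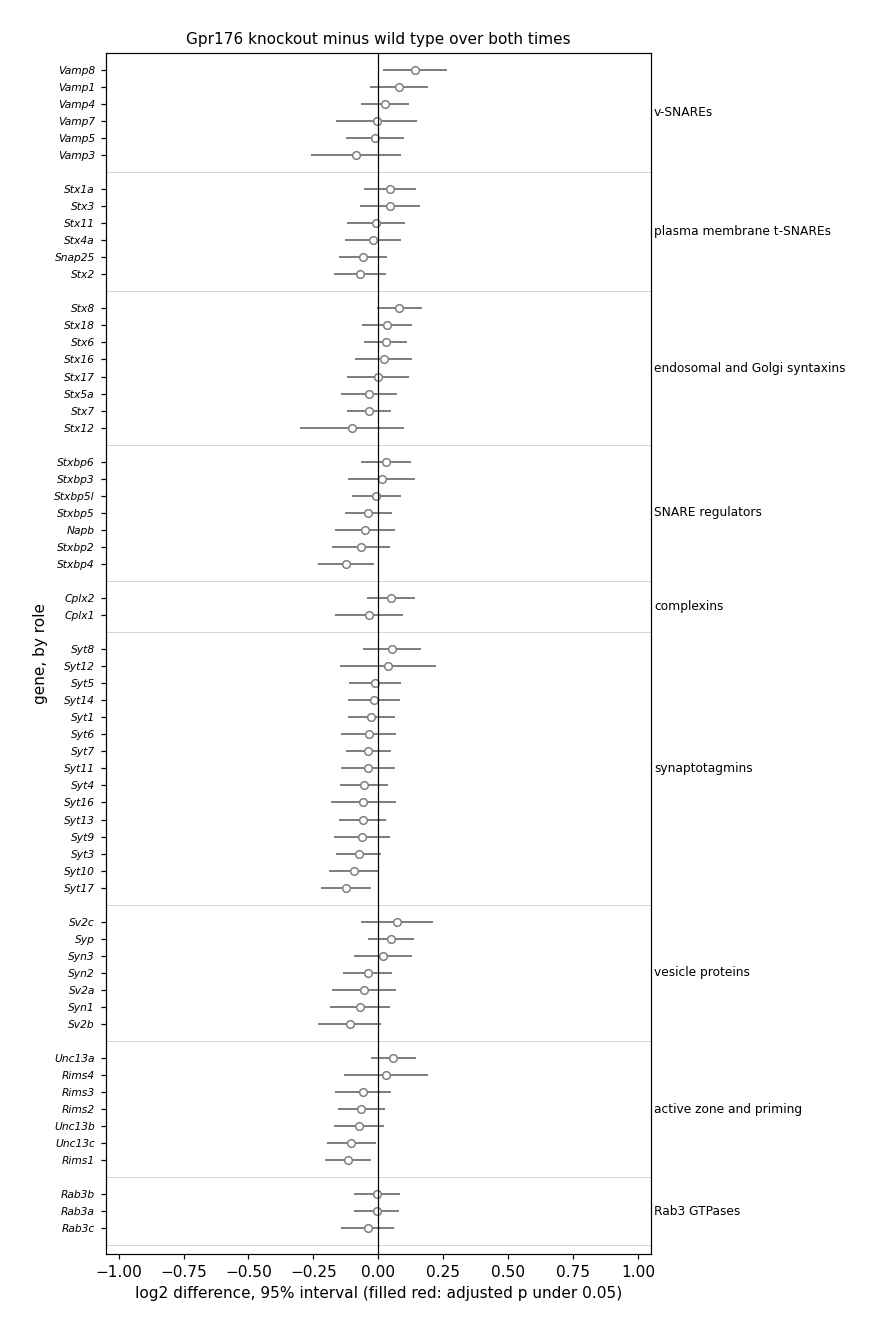
Log2 difference, Gpr176 knockout minus wild type over both times (x axis, same range as the day-night plot), for the 61 tested genes of the release machinery (y axis, grouped by role), with 95% intervals. No point is filled, as none passed the test, and all intervals lie between -0.30 and 0.26.

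A further list of 82 genes of the vesicle cycle, covering active zone scaffolds, transporters, endocytosis and dense-core release, had 72 tested genes. Of these, 4 rose and 9 fell at CT18 over both genotypes, or 18.1%, beside 16.8% of all genes tested. Those that fell included Sytl5, a synaptotagmin-like effector of Rab27 (-0.30 ± 0.0485, limma adjusted p = 0.00271), Rab27a itself (-0.30 ± 0.0587, adjusted p = 0.007) and Sytl2, another such effector (-0.33 ± 0.0705, adjusted p = 0.0112). The night and day arrays of Sytl2 overlapped, and it averaged 6.99, near the filter level of 6.82. Its knockout arrays at CT18, at 6.63 and 6.66, lay under that level. The C2-domain protein gene Doc2a (-0.19), the Rab3 regulator Rab3gap1 (-0.20), the SNARE adaptor Napa (-0.18), the monoamine transporter Slc18a2 (-0.19), the scaffold Pclo (-0.18) and the dense-core priming factor Cadps2 (-0.14) fell as well. Rab3ip, an exchange factor for Rab8 (0.22 ± 0.0369, adjusted p = 0.00349), rose, as did the endocytic genes Pacsin2 (0.18), Hspa8, the chaperone that uncoats clathrin vesicles (0.18), and Snap91 (0.15). In the knockout against wild type none of the 72 was called, beside 0.0241% of all genes tested over both times. At an unadjusted p under 0.05 over both times there were 3, or 4.17%, beside 12% of all genes.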

How the data were processed

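Whole-transcript arrays were amplified and biotin-labelled with commercial kits, per the labels' protocols, and the authors deposited 1 table of log2 values for 28853 probe sets and 8 arrays. Their background correction, summarisation, normalization and software were not given in the sources used here. Lower quartiles of the deposited columns spread over 0.139 log2, above a limit of 0.1, so the columns were quantile normalized, which forces 1 distribution on all arrays, so that a shift common to most genes cannot be seen.

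Of the probe sets, 21789 carry 1 symbol in the platform annotation, and 21698 of these matched the RefSeq table of assembly GRCm38.p6 by Entrez number. The brightest probe set stood for each of 19938 genes. Genes with a mean under the 40th percentile of all probe sets (6.82) were not tested, which left 12452.

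A mean per group was fitted to all 8 arrays with limma 3.58.1 under R 4.3.3 (4 residual and 5.58 prior degrees of freedom), and 7 contrasts were taken. Adjusted p-values are limma's, by Benjamini-Hochberg. The fit was tested on simulated data. With 2 pools per group, the number of arrays limits the precision.

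The members and lists were chosen with earlier results of these data known. Genes named were all called members, the 5 members of smallest p where fewer than 5 were called, the 10 brightest, Gpr176, and up to 12 called genes of the wider vesicle-cycle list by smallest p for the day-night comparison, with Cadps2 named beyond these as the last of its 13. All other members are given by value. Alternatives were other scalings, filters, probe rules and variance models, the replicate letter as a block, each array left out, and a wider reading of the Rab3 symbols.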

Additional observations from a re-analysis of the deposited data

How the results depend on the processing

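The count of members called over both genotypes between CT18 and CT6, 16 of 61, was 12 with the values as deposited, 9 with median centring, 12 with no filter, 19 with the stricter filter, 16 with the mean of all probe sets, 19 with trended and robust variances, and between 8 and 13 with 1 array left out. In the knockout the count of 9 was 5 with the values as deposited, 4 with median centring, 4 with no filter and between 2 and 6 with 1 array left out. The higher share of its calls, 44.4%, was 60% as deposited and 75% with median centring, and in wild type 50% became 60% with either. In wild type the count of 6 lay between 2 and 6 with 1 array left out. With the replicate letter as a block the 3 counts were 14, 6 and 6. The letters A and B are not said to mark shared litters or days. The deviations of the A arrays correlated between groups from -0.222 to 0.257. These values cannot decide whether pools of the same letter share anything further. Syt17, Syt13, Syt9, Unc13a, Stxbp4, Syt5 and Syt4 were called over both genotypes in all 15 alternatives run for them, and each of the other 9 called members was lost in at least 2. Counts for the knockout against wild type and for the interaction were 0 in every alternative run. No called member changed direction in its contrast in any alternative, nor did the 5 members of smallest p in each contrast without calls. Directions of the other members under the alternatives are not given. In the fits without 1 array, the lone array of a group was assumed to vary like the others.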

Other observations

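The numbered Rab genes from Rab30 to Rab39, which begin with the same letters as Rab3 but encode GTPases of the Golgi, endosomes and other organelles, gave 12 measured genes, of which 9 were tested. Of these 3 rose at CT18 over both genotypes and 0 fell, beside 10.0% and 6.79% of all genes tested. Rab33a, a Rab known from dense-core and axonal transport vesicles, averaged 9.50 at CT18 and 9.23 at CT6 (difference 0.27 ± 0.0387, limma adjusted p = 0.00149). Rab30, a Golgi Rab, averaged 9.35 at CT18 and 9.12 at CT6 (0.23 ± 0.053, adjusted p = 0.0159), and Rab35, a Rab of endocytic recycling, 9.37 at CT18 and 9.19 at CT6 (0.17 ± 0.0436, adjusted p = 0.0245). In Rab33a and Rab30 all night arrays lay above all day arrays. Adding these genes would give 19 called of 70 members, with 9 higher and 10 lower.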
